A study of Rattus norvegicus with 25 samples.

Results

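The genes described here are 8 components of the machinery that fuses synaptic vesicles with the presynaptic membrane: Snap25, Stx1a, Vamp1, Vamp2, Syt1, Cplx1, Cplx2 and Nsf. They were found by gene name, ignoring case, in the tables of both brain regions, and each matched 1 of the 26312 gene identifiers. Snap25 was chosen by its measured values: it was picked from these libraries for its lower level in the dentate gyrus (DG) of stress-high than of stress-low animals, and the other 7 genes were added as its partners. Values of all 8 genes in that contrast are therefore given as a description with no p-value. The same holds for Snap25 between control animals and either stress group in the DG, since the libraries of the stress groups are the same. The question for the other genes and contrasts was whether the partners of Snap25 differed between groups as well.

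All animals were adult male wild-type Sprague-Dawley rats. Control animals stayed in the home cage apart from a cage change and the behavior tests that all animals went through, and stressed animals went through 1 session of immobilization with fox urine as a predator scent. Stressed animals were then chosen from the ends of a composite score of anxiety-like behavior from avoidance and startle tests, with stress-low animals (low scores, called resilient) and stress-high animals (high scores, called vulnerable), so that these groups differ by behavior after the same exposure. On day 9 after stress, tissue punches of the left dorsal DG and the left basolateral amygdala (BLA) were pooled within an animal and their poly-A RNA was sequenced, 1 library per animal and region. There were 12 DG libraries (6 control, 3 stress-low, 3 stress-high) and 13 BLA libraries (7 control, 3 stress-low, 3 stress-high). The control library that stood apart in a principal component analysis was left out in each region (animal 35 in the DG, animal 2 in the BLA), as the study left out 1 per region, and comparisons used 11 and 12 libraries. In the BLA the group of animal 35 was read from its library name, since its treatment field says stress.

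Fusion is driven by SNARE proteins, which zip together across the gap between vesicle and plasma membrane. Snap25 and Stx1a (syntaxin) sit on the plasma membrane, and Vamp1 and Vamp2 (synaptobrevins) sit on the vesicle. Syt1 (synaptotagmin) is the vesicle's calcium sensor for fast release, Cplx1 and Cplx2 (complexins) bind the assembled SNARE complex and tune release, and Nsf is the ATPase that takes spent complexes apart. In the DG the most abundant neuron is the granule cell, and in the BLA it is the glutamatergic projection neuron.

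Total expected counts were 11656439 to 19477932 in the DG and 12709493 to 22801247 in the BLA. Every stress-high DG library (at least 16201792) was deeper than every stress-low DG library (at most 15547038). Markers of the labelled tissues were present. The granule cell markers Prox1 and C1ql2 had medians of 73.3 and 336 TPM in DG libraries and of 2.57 and 2.80 TPM in BLA libraries. Of the same list, Dsp had medians of 6.51 TPM in the DG and 0.2 TPM in the BLA. Calb1 went the other way, with medians of 105.3 and 135.4 TPM. Slc17a7, the vesicular glutamate transporter of projection neurons, was at 817.45 to 1184.12 TPM in the BLA. It was at 1574.61 to 1995.67 TPM in the DG and so does not mark the BLA alone. No member of a list of 10 pan-neuronal genes passed an unadjusted p of 0.05 between any groups, while 4 of 10 oligodendrocyte genes were higher in stress-low than in control DG at that level. The share of all genes at that level, in either direction, was 6.90%. Summed TPM of the oligodendrocyte list was 1683 to 2290 in control, 2099 to 2265 in stress-low and 1896 to 2269 in stress-high DG libraries, and its part in the results below was not tested. In the BLA, summed TPM of a list of striatal and central amygdala genes was 283 to 896 in control, 272 to 871 in stress-low and 391 to 491 in stress-high libraries, and in the DG it was 279 to 405 in control, 257 to 321 in stress-low and 224 to 265 in stress-high libraries, which did not overlap with the controls. Of 8 tested markers of CA1 to CA3 pyramidal neurons, 2 were higher in stress-low and 3 in stress-high than in control BLA at an unadjusted p under 0.05. The shares of all genes, in either direction, were 2.75% and 2.57%. Log2 fold changes of the list ran from -0.11 to 0.40 for stress-low and from -0.28 to 0.48 for stress-high animals. The part of these lists was not tested either. In tissue of mixed cells, fewer cells of a type and less RNA per cell cannot be told apart.

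All 8 genes were strongly expressed in both regions. TPM (a transcript's share of all transcripts, corrected for its length) put the mean level of Snap25 at rank 55 of all genes in the DG and at rank 38 in the BLA. In the DG the order was Snap25 (1488 ± 102 TPM, SD, n = 11), Cplx2 (935 ± 49.8), Vamp2 (876 ± 78.8), Nsf (656 ± 38.7), Syt1 (572 ± 48.5), Cplx1 (355 ± 27.6), Vamp1 (263 ± 24.7) and Stx1a (95.8 ± 25.1). Snap25 was thus far above its syntaxin partner on the same membrane. Cplx2 and Vamp2 overlapped in range, with Cplx2 the higher in 9 of 11 libraries. Nsf and Syt1 also overlapped in range, but Nsf was the higher in all 11, and the other neighbours in the order did not overlap.

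In the BLA the order was Snap25 (1469 ± 101 TPM, SD, n = 12), Vamp2 (880 ± 77.9), Nsf (760 ± 59.2), Syt1 (632 ± 50.7), Cplx1 (259 ± 20.7), Cplx2 (162 ± 17.2), Stx1a (149 ± 21.8) and Vamp1 (94.0 ± 9.33). Cplx2 and Stx1a did not differ beyond their spread, with Cplx2 the higher in 6 of 12 libraries. Within the BLA, Cplx1 was above Cplx2 in all 12 libraries, whereas within the DG Cplx2 was above Cplx1 with no overlap in range (864.54 to 1021.2 against 314.01 to 397.54 TPM). The effective lengths behind TPM were computed differently in the tables of the 2 regions, so the members' levels are not compared between them.

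**Figure D1:**
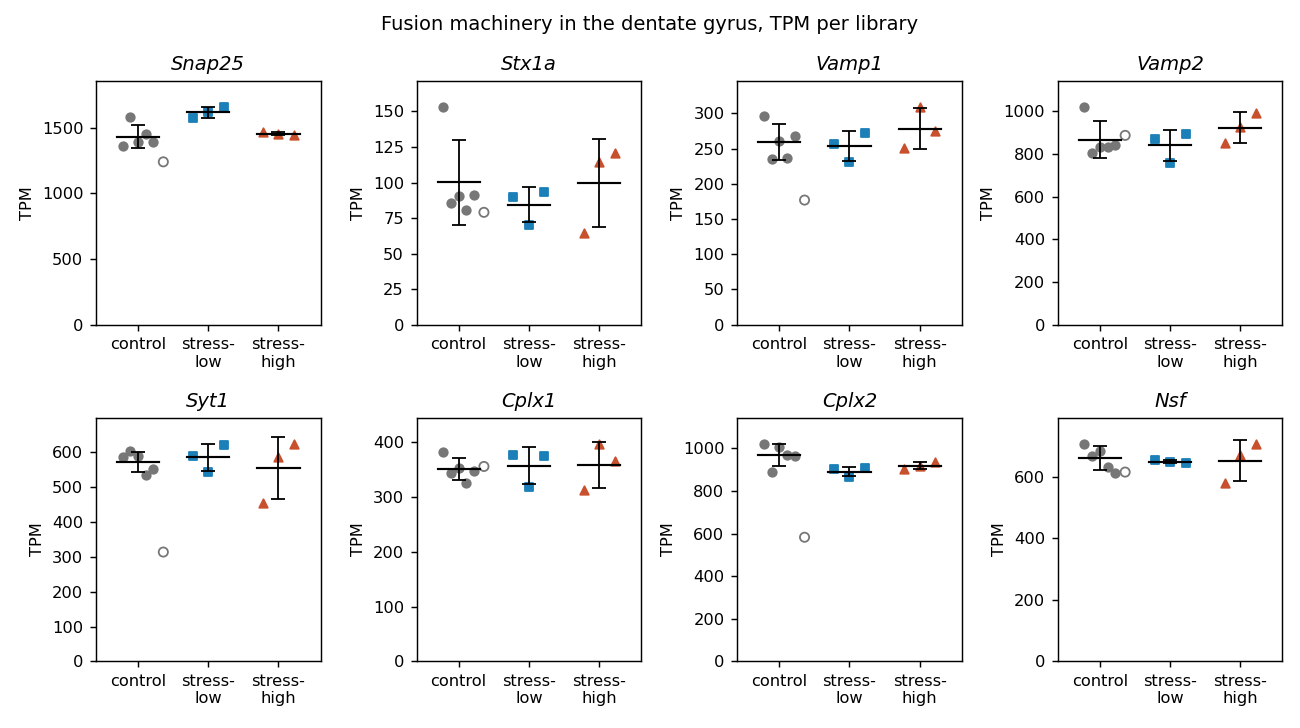
TPM (vertical axis, from 0) of the 8 genes in each DG library by group, with filled points for libraries in the comparisons, lines and bars for mean ± SD (5 control, 3 stress-low, 3 stress-high) and the open circle for the left-out control of animal 35. All 3 stress-low libraries lie above all 3 stress-high libraries for Snap25, and Stx1a and Vamp2 have 1 control, animal 2, far above the other 4.

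In the DG, Snap25 was at 1573, 1622 and 1656 TPM in the stress-low animals 22, 33 and 34 and at 1466, 1453 and 1441 TPM in the stress-high animals 7, 19 and 20. The groups did not overlap, and the log2 fold change of stress-high over stress-low, from edgeR on expected counts, was -0.15 (SE 0.07). Group means were 1617 ± 41.6 TPM (SD, n = 3) and 1453 ± 12.7 TPM (SD, n = 3). These are the values for which the gene was chosen. Snap25 was the only one of the 8 genes whose stress-low and stress-high TPM did not overlap, and 8.69% of all 14080 tested genes did not overlap between these groups.

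Stx1a, the syntaxin that pairs with Snap25, was at 90.1, 70.3 and 93.0 TPM in stress-low and at 64.2, 115 and 120 TPM in stress-high animals, so that 1 stress-high animal lay below and 2 lay above all stress-low animals. Its log2 fold change was 0.24 with an SE of 0.24, the widest of the 8 genes. Vamp2 was at 871, 756 and 895 TPM in stress-low and at 851, 927 and 994 TPM in stress-high animals, a log2 fold change of 0.14 (SE 0.09) with overlap through animal 7. Without the stress-high library of animal 7, 6 of the 8 genes and 22.7% of all genes had TPM groups that did not overlap, a setting of 3 against 2 libraries.

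The remaining partners had small values. Log2 fold changes of stress-high over stress-low were -0.07 (SE 0.10) for Syt1, 0.05 (SE 0.05) for Cplx2, 0.01 (SE 0.09) for Cplx1, 0.01 (SE 0.07) for Nsf and -0.0034 (SE 0.07) for Vamp1. Over the 8 genes 5 values were above 0 and 3 below, with a median of 0.01 against -0.0002 over all tested genes. Over all genes in this contrast, edgeR gave an adjusted p under 0.05 for 0.00% and an unadjusted p under 0.05 for 3.12%, and DESeq2 called 3 genes.

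Between control and stress-low animals in the DG, Snap25 was at 1358, 1387, 1387, 1450 and 1578 TPM in the controls, so that 4 of 5 controls lay below all stress-low animals and the fifth, animal 14, lay at the level of the lowest stress-low animal. Its log2 fold change of stress-low over control was 0.19 (SE 0.07), given as a description. Leaving out the control of animal 14 moved it to 0.25, and leaving out any other single library left it between 0.16 and 0.20.

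Cplx2, the complexin with the higher level in the DG, had the opposite sign in that contrast. Its TPM was 903, 865 and 907 in stress-low animals and 890, 963, 968, 1009 and 1021 in controls. Again 4 of 5 controls lay on 1 side of all stress-low animals, and animal 14 lay among them. The log2 fold change of stress-low over control was -0.11 (SE 0.05, 95% interval -0.21 to -0.01), with an unadjusted p of 0.0284 and an adjusted p of 0.718 by edgeR. It did not pass over all genes, and its unadjusted p was no longer under 0.05 without control animal 2, without stress-low animal 33 or 34, with the left-out control put back (-0.05, unadjusted p 0.641), with the replicate block or with limma on unfiltered TPM.

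None of the 7 partners passed adjustment in that comparison (0.00% of all genes did, and DESeq2 called 4 genes, none of the 8). At an unadjusted p under 0.05 there was 1 of 7 partners, Cplx2, where 6.90% of all genes passed. Stx1a had a log2 fold change of -0.23 (SE 0.22, adjusted p 0.828 by edgeR) and Vamp1 of 0.11 (SE 0.06, adjusted p 0.740). The values of Vamp2, Syt1, Cplx1 and Nsf were smaller than their standard errors. No member had TPM groups that did not overlap, and 3.71% of all genes did.

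Stx1a in the controls was at 80.8, 85.8, 90.2, 91.2 and 153 TPM. Vamp2, its vesicle partner, was at 807, 834, 835, 842 and 1020 TPM. In both genes the highest value belonged to animal 2 and stood apart from the other 4. With that library left out, the log2 fold change of Vamp2 in stress-high over control animals went from 0.11 (SE 0.08, adjusted p 1.0) to 0.17 (SE 0.07), with an unadjusted p of 0.0210 and an adjusted p of 1.0 by edgeR.

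Between control and stress-high animals in the DG the 8 genes stayed within -0.06 to 0.11 on the log2 scale. Snap25 was at 0.04 (SE 0.07), given as a description. Vamp1 was at 0.11 (SE 0.06, adjusted p 1.0) and Cplx2 at -0.06 (SE 0.05, adjusted p 1.0) by edgeR. None of the 7 partners had an adjusted p under 0.05, as for 0.00% of all genes (DESeq2 called 1 gene, none of the 8). No partner had an unadjusted p under 0.05, where 2.19% of all genes did. None of the 8 had groups that did not overlap in TPM, against 1.46% of all genes.

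Vamp1, the synaptobrevin that shares its vesicle role with Vamp2, gave different values by unit. In the DG its log2 fold change of stress-low over control was 0.11 on expected counts and -0.03 on TPM, and that of stress-high over stress-low was -0.0034 on counts and 0.13 on TPM. Its model holds 2 transcripts, and the length behind its TPM, weighted by their estimated abundance, varied between libraries. That length was 1886, 1959 and 1890 bases in stress-low and 1774, 1675 and 1819 bases in stress-high animals, with no overlap, and 1553 to 1982 bases in controls. In the BLA it was 2633 bases in 11 of 12 libraries. Each of the other 7 genes had 1 length in all libraries, Snap25 included, whose model also holds 2 transcripts.

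**Figure D2:**
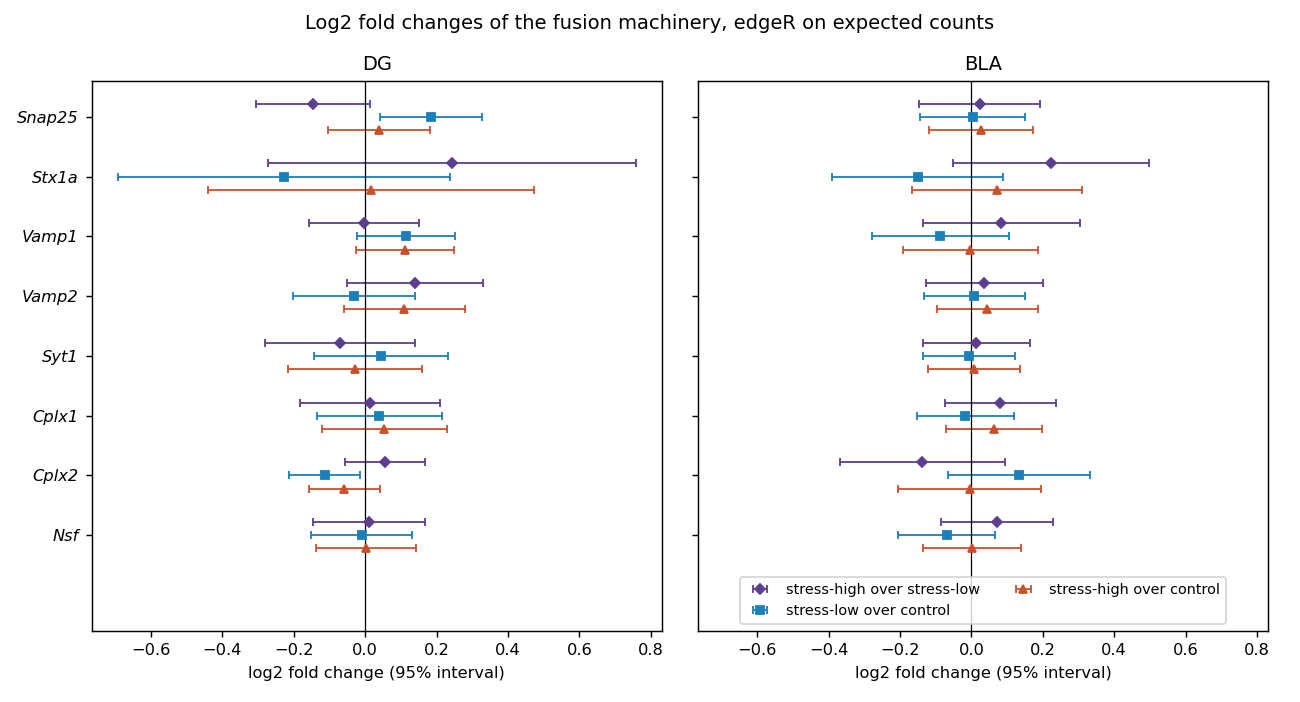
Log2 fold changes (horizontal axis, edgeR on expected counts) of the 8 genes with their 95% intervals for the 3 comparisons in the DG (left) and the BLA (right). Values of Snap25 in the DG, and of all 8 genes between the stress groups of the DG, are descriptions. Among the others, only the interval of Cplx2 for stress-low over control in the DG leaves out 0, and no adjusted p was under 0.05.

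In the BLA the groups overlapped for Snap25. It was at 1451, 1495 and 1538 TPM in stress-low animals, at 1347, 1518 and 1572 TPM in stress-high animals, and at 1255 to 1620 TPM in controls with a median of 1456. Log2 fold changes were 0.0033 (SE 0.07, 95% interval -0.14 to 0.15) for stress-low over control, 0.03 (SE 0.07) for stress-high over control and 0.02 (SE 0.08) for stress-high over stress-low. Each had an adjusted p of at least 0.9998 by edgeR. The interval of the last ran from -0.15 to 0.19.

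Cplx2 was the only one of the 8 genes whose stress groups did not overlap in the BLA. It was at 168, 170 and 193 TPM in stress-low and at 150, 152 and 167 TPM in stress-high animals, and controls spanned 136 to 181 TPM with a median of 153. The groups were separated by less than 1 TPM (166.87 against 167.74). Of all 15230 genes tested in the BLA, 5.89% did not overlap between these groups. The log2 fold change was -0.14 (SE 0.11, adjusted p 1.0) for stress-high over stress-low and 0.13 (SE 0.09, adjusted p 0.9998) for stress-low over control by edgeR.

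Stx1a had the largest difference between the stress groups of the BLA. It was at 128, 143 and 143 TPM in stress-low and at 127, 171 and 173 TPM in stress-high animals, where animal 7 was again the lowest. The log2 fold change was 0.22 (SE 0.13, 95% interval -0.05 to 0.50), with an adjusted p of 1.0 by edgeR. Against controls it was -0.15 (SE 0.11, adjusted p 0.9998) in stress-low animals. Other values of at least 1 standard error were 0.08 (SE 0.07) for Cplx1 in stress-high over stress-low animals, 0.06 (SE 0.06) for Cplx1 in stress-high animals over controls and -0.07 (SE 0.06) for Nsf in stress-low animals over controls, none under an adjusted p of 0.05.

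No member passed in the BLA by edgeR or DESeq2. The shares of all genes with an unadjusted p under 0.05 were 1.98% for stress-high over stress-low, 2.75% for stress-low over control and 2.57% for stress-high over control, and no member was among them. At the adjusted threshold the share was 0.00% in each, and DESeq2 called 0, 1 and 1 genes. Between controls and either stress group no member had groups that did not overlap, against 1.39% of all genes for stress-low and 0.978% for stress-high animals.

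**Figure D3:**
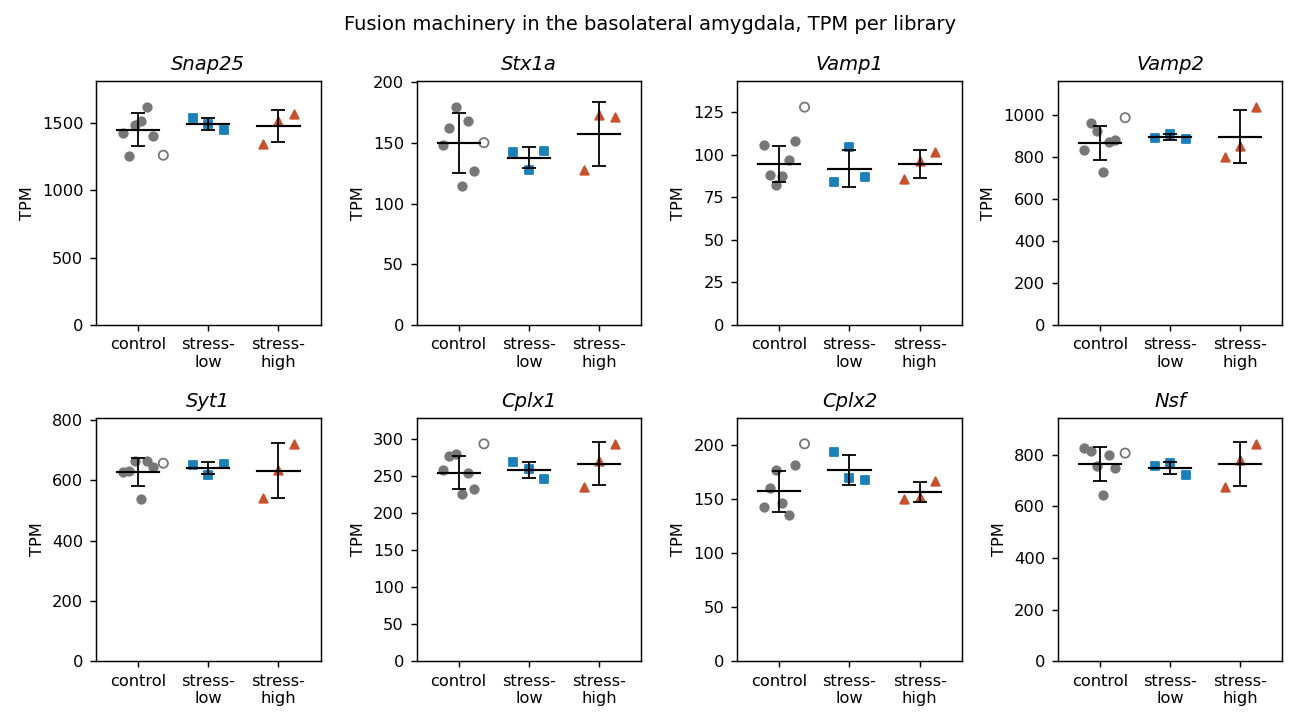
TPM (vertical axis, from 0) of the 8 genes in each BLA library by group, drawn as for the DG with 6 control, 3 stress-low and 3 stress-high libraries and the open circle for the left-out control of animal 2. Groups overlap for 7 genes in the stress-low and stress-high comparison, and the 3 stress-low values of Cplx2 lie just above the 3 stress-high values.

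The fold changes of the 2 regions were compared in a single fit, to which 9 animals gave a library of each region. For stress-low over control, the DG minus BLA difference was -0.26 (SE 0.11, 95% interval -0.49 to -0.04) for Cplx2, with an unadjusted p of 0.0243 and an adjusted p of 0.9999 by edgeR, and 3.21% of the 15453 genes tested had an unadjusted p under 0.05. With the animal as a block (limma voom) it was -0.27 with an unadjusted p of 0.0115, and with the 2 left-out controls put back it was -0.17 with an unadjusted p of 0.211. The difference was 0.17 (SE 0.10) for Snap25, a description since its DG value was chosen. It was 0.19 (SE 0.11, adjusted p 0.9999) for Vamp1. For stress-high over control none of the 7 partners had an unadjusted p under 0.05, where 1.84% of all genes did. The differences of the 8 genes ran from -0.05 to 0.12, with Vamp1 at 0.12 (SE 0.11) and Snap25, again a description, at 0.02 (SE 0.10).

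Across libraries, several partners varied together, with Stx1a and Cplx1 among them in both regions. Pearson's r and Spearman's rho of log2(TPM + 1) were computed for 28 pairs in each region, 56 relations in all, with two-sided permutation tests and adjustment over all 56. Pairs with Snap25 in the DG are given without a p-value, since the gene was chosen by those values. Of the 21 other DG pairs, 9 had an adjusted p under 0.05 for r, all positive, and 5 also for rho. In the BLA 9 of 28 pairs did for r, all positive and none with Snap25, and 2 also for rho. Cplx2 was in none of these pairs in either region, and Vamp1 in none in the BLA. The share of pairs of other genes that would pass was not computed. Whether the members vary together more than other genes was therefore not tested.

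In the DG, 5 of the pairs among Stx1a, Vamp1, Vamp2 and Cplx1 passed for both r and rho, and Vamp2 with Cplx1 passed for r. The pairs with Vamp1 use its TPM, whose length varied between libraries and was shortest in control animal 2 (1553 bases). Whether these pairs vary together on counts was not tested. Stx1a and Vamp2, whose proteins bind each other across the membranes, had r = 0.868 (adjusted permutation p 0.0143) and rho = 0.782 (adjusted permutation p 0.045, n = 11). Without the 2 libraries farthest from the median of Stx1a, r was 0.944, and after the group means were taken out it was 0.915. Stx1a and Cplx1 had r = 0.816 (adjusted permutation p 0.0143) and rho = 0.845 (adjusted permutation p 0.0204), and Vamp1 and Vamp2 r = 0.828 (adjusted permutation p 0.0143) and rho = 0.873 (adjusted permutation p 0.0144). Without the 2 farthest libraries r was 0.797 (adjusted permutation p 0.123) for the former and 0.805 (adjusted permutation p 0.0458) for the latter.

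In the BLA, Stx1a and Cplx1 had r = 0.831 and rho = 0.818 (adjusted permutation p 0.0143 and 0.0204, n = 12), and Vamp2 and Cplx1 had r = 0.817 and rho = 0.769 (adjusted permutation p 0.0143 and 0.0398). Without the 2 farthest libraries r was 0.737 and 0.600. Vamp1 did not vary with Vamp2 there (r = 0.181, rho = -0.035, adjusted permutation p 0.767 and 0.937). With the 2 farthest libraries left out of each pair, 3 pairs without Snap25 in the DG and 0 in the BLA had an adjusted p under 0.05. In the BLA, r of Syt1 and Nsf went from 0.795 to 0.275 and thus rests on those libraries, while r of Stx1a and Nsf went from 0.720 to 0.701 and lost its call with fewer libraries.

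Snap25 and Cplx2 ran in opposite directions in the DG. Their r was -0.847 and rho -0.882 over 11 libraries, given as a description. It was -0.863 without the 2 libraries farthest from the median of Snap25 and -0.847 within groups. Of 9197 genes whose DG mean reached 10 TPM, 0.555% had a lower r with Snap25 than Cplx2. In the left-out control of animal 35 both genes were low (1239 and 583 TPM), and with that library r was 0.361 and rho -0.448. In the BLA r was -0.054 and rho -0.091 (adjusted permutation p 0.935 and 0.877, n = 12).

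Neither library depth nor the first principal component was related to any member past adjustment (32 relations, permutation tests). That component was computed with the left-out control of each region included, which lay at 55.95 in the DG and 46.4 in the BLA. In the BLA, r with it was 0.702 for Vamp2, 0.658 for Syt1 and 0.590 for Nsf (adjusted permutation p 0.296, 0.296 and 0.323, n = 12). For Snap25 and Cplx2 in the DG, r with total count was -0.178 and -0.215 and rho -0.027 and -0.164 (adjusted permutation p of r 0.827 and 0.795, and of rho 0.991 for both). Without the 2 libraries farthest in depth the r were 0.259 and -0.390.

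**Figure D4:**
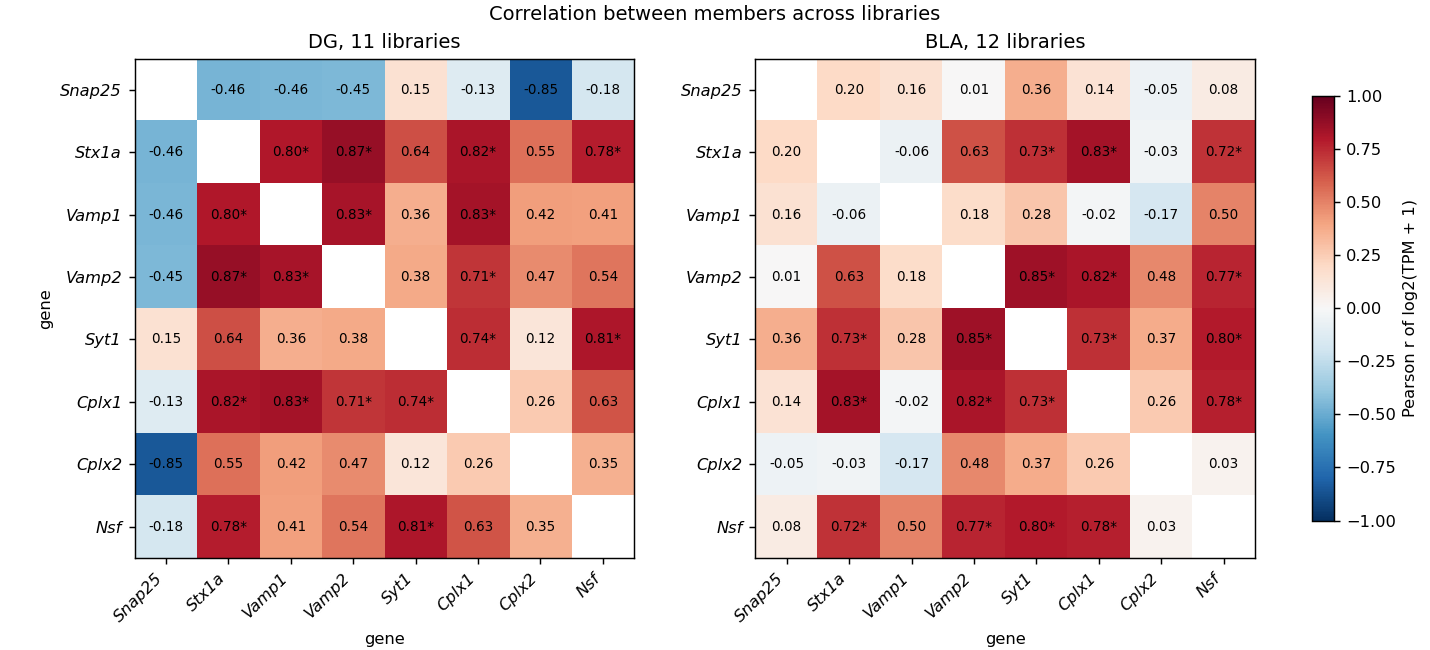
Pearson r of log2(TPM + 1) for each pair of the 8 genes (rows and columns) across 11 DG libraries (left) and 12 BLA libraries (right), with a star for an adjusted permutation p under 0.05 (DG pairs with Snap25 are shown without stars). In the DG, 6 of the 7 values of Snap25 are below 0, the lowest for Cplx2, and in the BLA its row holds no star.

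**Figure D5:**
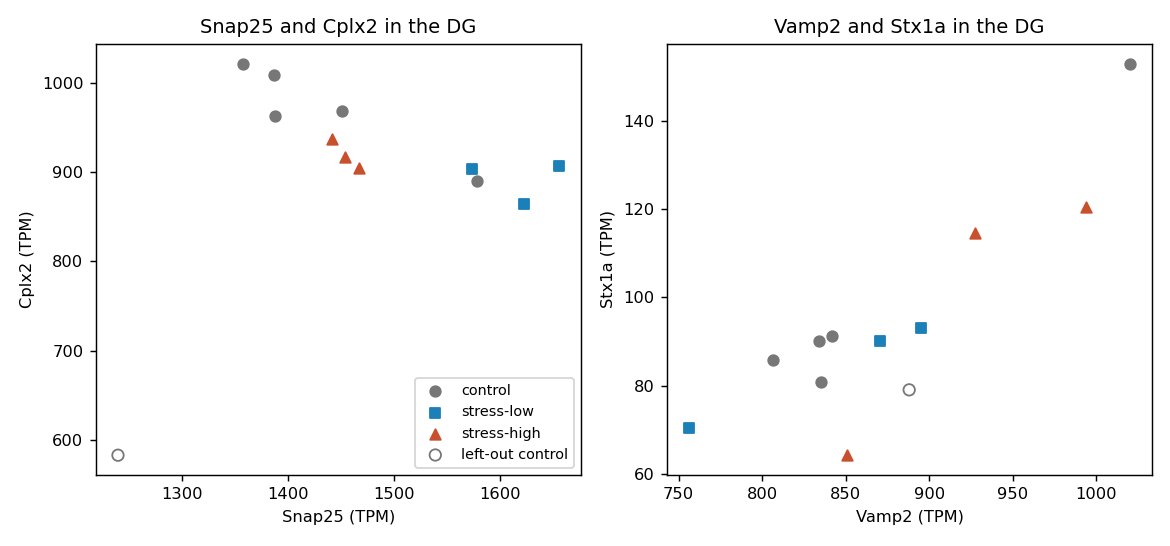
TPM of Cplx2 against Snap25 (left) and of Stx1a against Vamp2 (right) in each DG library by group, on axes that do not start at 0, with an open circle for the left-out control. Cplx2 is lower where Snap25 is higher over the 11 filled points, while the open circle at 1239 and 583 TPM is low in both, and Stx1a and Vamp2 are high together in control animal 2.

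The promoters of 5 genes in these pairs are shown because the pairs varied together or in opposite directions. RefSeq's promoter table matched 7 of the 8 genes (Snap25 was not matched). Each line gives the 250 bases before the gene's start, 5′ to 3′ on the gene's strand, in the GRCr8 build, which is not the build of the files. Capitals mark the GC box GGGCGG and the CRE core TGACG on either strand.
Stx1a, chr12:27306472-27306721, minus strand: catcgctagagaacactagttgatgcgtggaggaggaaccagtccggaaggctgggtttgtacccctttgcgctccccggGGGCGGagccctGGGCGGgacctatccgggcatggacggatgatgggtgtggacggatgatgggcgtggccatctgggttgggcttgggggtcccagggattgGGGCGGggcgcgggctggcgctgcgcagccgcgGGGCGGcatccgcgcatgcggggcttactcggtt
Vamp1, chr4:159698644-159698893, plus strand: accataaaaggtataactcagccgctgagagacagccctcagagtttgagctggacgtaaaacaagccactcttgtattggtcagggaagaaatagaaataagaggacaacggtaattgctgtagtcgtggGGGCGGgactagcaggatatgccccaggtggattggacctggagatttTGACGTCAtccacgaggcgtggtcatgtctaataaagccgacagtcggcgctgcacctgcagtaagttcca
Vamp2, chr10:54292539-54292788, plus strand: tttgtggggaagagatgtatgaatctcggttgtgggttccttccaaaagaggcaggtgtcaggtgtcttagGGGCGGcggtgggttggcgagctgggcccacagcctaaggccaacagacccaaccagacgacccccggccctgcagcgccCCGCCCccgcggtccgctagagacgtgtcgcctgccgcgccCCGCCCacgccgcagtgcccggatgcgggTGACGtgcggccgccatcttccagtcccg
Cplx1, chr14:1328823-1329072, plus strand: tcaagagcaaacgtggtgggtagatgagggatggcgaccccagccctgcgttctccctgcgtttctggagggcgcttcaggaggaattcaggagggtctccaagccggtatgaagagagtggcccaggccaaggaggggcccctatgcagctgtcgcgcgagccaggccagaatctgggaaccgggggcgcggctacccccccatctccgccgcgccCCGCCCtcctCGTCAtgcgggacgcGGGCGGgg
Cplx2, chr17:10236754-10237003, minus strand: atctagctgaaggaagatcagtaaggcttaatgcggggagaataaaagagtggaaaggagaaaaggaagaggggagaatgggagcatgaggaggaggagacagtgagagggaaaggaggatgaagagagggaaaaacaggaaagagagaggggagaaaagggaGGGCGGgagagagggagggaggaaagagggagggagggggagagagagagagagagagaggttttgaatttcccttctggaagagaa

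The windows of Stx1a, Vamp2 and Cplx1 were rich in G and C (68.4%, 68.0% and 68.0%, against a median of 51.2% over all 33469 promoters) and held 4, 3 and 2 GC boxes. Those of Vamp1 and Cplx2 were at 50.4% and 50.8% and held 1 GC box each. A GC box is found in 30.5% and the CRE core in 18.2% of all promoters of this length. The CRE core was found once in the windows of Vamp2 and Cplx1 and in 2 overlapping matches, 1 on each strand, in that of Vamp1. A match is a description of the letters and not of binding.

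The genes most like Snap25 across libraries were sought among genes that are no member and whose mean reached 10 TPM. In the DG these were Mapk8 (r = 0.925), Ywhab (r = 0.925) and Scoc (r = 0.922) over 11 libraries, where the median gene was at -0.205. In the BLA they were Mmp16 (r = 0.949), Pds5a (r = 0.946) and Snx13 (r = 0.939) over 12 libraries, where the median gene was at 0.258. These are the extremes of many genes and carry no test.

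Beyond the 8 genes, 98 other genes of vesicle release were followed in 5 lists (other SNAREs, SNARE assembly and recycling, other calcium sensors and complexins, active zone and vesicle Rabs, vesicle membrane and clustering). None had an adjusted p under 0.05 in any comparison by edgeR. In the DG, 5 of 97 tested were higher and 0 lower in stress-low animals than in controls at an unadjusted p under 0.05 (5.15%, against 6.90% of all genes), with a median log2 fold change of 0.019 over the lists and -0.003 over all genes. Between control and stress-high animals 3 were higher and 0 lower (3.09%, against 2.19% of all genes).

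Of those genes, Stx3 is a syntaxin of other secretory routes and of ribbon synapses. It was at 6.85 to 9.00 TPM in control, 9.74 to 10.32 in stress-low and 9.22 to 10.57 in stress-high DG libraries, with both stress groups above all controls. The log2 fold changes were 0.36 (SE 0.10, unadjusted p 0.00308, adjusted p 0.718) and 0.33 (SE 0.10, unadjusted p 0.00417, adjusted p 1.0) by edgeR, and they share the controls. The DG minus BLA differences of these fold changes were 0.53 (SE 0.13) and 0.44 (SE 0.13), with adjusted p of 0.9999 and 1.0.

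Stx7, an endosomal syntaxin, was at 77.45 to 92.01 TPM in control, 94.00 to 105.91 in stress-low and 83.31 to 89.11 in stress-high DG libraries. Its log2 fold change of stress-low over control was 0.25 (SE 0.07, unadjusted p 0.00350, adjusted p 0.718) by edgeR, and the DG minus BLA difference was 0.26 (SE 0.12). Sypl1, a relative of the vesicle protein synaptophysin, had log2 fold changes of 0.41 (SE 0.16) for stress-low and 0.35 (SE 0.16) for stress-high over control animals. Vamp4 was at 0.14 (SE 0.06) and Napb, a partner of Nsf in taking complexes apart, at 0.13 (SE 0.06) for stress-low over control, and Syt10 was at 0.56 (SE 0.22) for stress-high over control.

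Between the stress groups of the DG, given as a description, 3 of the 97 genes had an unadjusted p under 0.05, 1 higher and 2 lower with high scores (3.09%, against 3.12% of all genes). These were Erc1, an active zone scaffold, at 0.22 (SE 0.09), Stx7 at -0.22 (SE 0.08) and Stx17, a syntaxin of autophagosomes, at -0.30 (SE 0.12). In the BLA the genes at an unadjusted p under 0.05 were Rims3 at 0.28 (SE 0.10) and Sv2a at 0.12 (SE 0.05) for stress-high over control and Rph3a, a Rab3 effector, at 0.23 (SE 0.10) for stress-high over stress-low, with adjusted p of 1.0 by edgeR for each. None passed between control and stress-low animals of the BLA.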

How the data were processed

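Poly-A RNA of the left DG and the left BLA was measured in 25 libraries. The authors aligned reads to the Rn5 build with Ensembl annotation with STAR 2.6.0a and quantified genes with RSEM 1.3.1 (versions from the submitters' processing notes). The authors deposited, for each region, expected counts (RSEM's estimated counts, which need not be whole), TPM, lengths and effective lengths in bases for 26312 identifiers with no filter. Effective length was 50 bases below length in the BLA and 261 to 274 bases below it in the DG, so that TPM was compared within regions. The deposited FPKM was not used.

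Groups and animal numbers came from the sample labels. In each region the control farthest from the median on the first principal component was left out. After rounding, edgeR 4.0.16 (R 4.3.3) tested the expected counts by quasi-likelihood F-tests (TMM scaling, filterByExpr at a count of 10, 3 group means per region, 14080 DG and 15230 BLA genes) and adjusted by Benjamini and Hochberg over all genes at 0.05. For stress-high over stress-low, log2 fold changes had a median standard error of 0.118 in the DG and 0.127 in the BLA, the precision at this depth. Correlations used 100000 permutations. Other settings tried were DESeq2 1.42.0, fits with RLE in place of TMM, without the filter on counts, on the 2 compared groups alone or on all libraries, a block for the replicate number of the titles, limma 3.58.1 on log2(TPM + 1) or log2(TPM + 0.1) of genes whose mean reached 0.5 TPM or of all genes, summed gene models of 1 name, and leaving out each library in turn. The scripts were tested on simulated data.

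The members and gene lists were chosen with earlier results of these data known. Of the members, fold changes are printed singly for Snap25 and for those of at least 1 standard error, and for all 8 between the stress groups of the DG. In the other lists, the genes named are those with the lowest unadjusted p under 0.05 (at most 3 a list and comparison), and per region the 3 genes most correlated with Snap25. Libraries are separate animals. Promoters came from RefSeq (GRCr8).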

Additional observations from a re-analysis of the deposited data

Results flagged for a closer look

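Of the 16 control groups of the members (8 genes in each region), 3 held a library far from the others by Dixon's test, which chance gives for about 1 group in 20. In the DG, control animal 2 was at 153 TPM for Stx1a (gap over range 0.856, 5 libraries) and at 1020 TPM for Vamp2 (0.835). In the BLA, control animal 28 was at 538 TPM for Syt1 (0.704, 6 libraries).

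The estimates of Cplx2 for stress-low over control had opposite signs in the 2 regions, and neither passed adjustment. The stress-low animals were not all the same, with animal 33 only in the DG and animal 30 only in the BLA. Every stress-low DG library lay below the mean of the DG controls and every stress-low BLA library above the mean of the BLA controls. The difference of the log2 fold changes was -0.26, with an unadjusted p of 0.0243 and an adjusted p of 0.9999 by edgeR. Of 13865 genes tested in both regions, 4.67% had such opposite libraries for stress-low and 2.25% for stress-high animals, and Cplx2 was the only member among the former.

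In the left-out BLA control of animal 2, 4 members were above all 6 controls of the comparisons. Vamp1 was at 128 TPM (controls 81.97 to 107.92), Vamp2 at 986 (729.58 to 962.8), Cplx1 at 294 (225.88 to 279.68) and Cplx2 at 201 (135.62 to 181.01). In that library, summed TPM was 1757 for the striatal and central amygdala list (283 to 896 in the 6 controls) and 170 for a list of endothelial and leptomeningeal genes (93.3 to 105), and the part of these in the members' values was not tested.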

How the results depend on the processing

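No setting gave a member an adjusted p under 0.05. Counts of members at an unadjusted p under 0.05 moved in a few settings. For stress-low over control in the DG, Cplx2 was lost with all libraries, with limma on log2(TPM + 1) without a filter and with the replicate block. Snap25 in the DG and all members between the stress groups of the DG are descriptions and are left out of these counts. The DG against BLA count of 1 became 0 with all libraries. For DG stress-low over control, leaving out control animal 14 gave Cplx2 and Vamp1, where the share of all genes went from 6.90% to 11.3%. Leaving out stress-low animal 33 gave Vamp1, and leaving out control animal 2 or stress-low animal 34 gave no partner. Any other single library left Cplx2. With 1 library left out, the count was 0 to 1 for DG stress-high over control (1 without control animal 2 or 14 or stress-high animal 7). It was 0 to 1 for BLA stress-low over control (1 without control animal 35) and 0 to 1 between the BLA stress groups (1 without animal 7, Stx1a at 0.31). Members whose groups did not overlap numbered 1 to 6 between the DG stress groups and 1 to 4 between the BLA stress groups. Both were highest without animal 7, where 22.7% and 14.1% of all genes did not overlap. Against control they numbered 0 to 2 for DG stress-low (2 without control animal 14, with 11.9% of all genes). For DG stress-high they numbered 0 to 1 (1 without control animal 2 or 14, with 2.45% and 5.48% of all genes).

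Signs turned for small values. Snap25 between the BLA stress groups was -0.02 (-0.0178) with limma, its DG minus BLA difference for stress-high over control was -0.05 (-0.0503) with all libraries, and Cplx2 for DG stress-high over control was 0.0095 with all libraries. Vamp1 for DG stress-low over control was -0.0323 with limma at a pseudocount of 0.1 and -0.0322 at 1, with or without a filter. With 1 library left out, Snap25 in the BLA ran from -0.0072 to 0.0634 for stress-high over control, from -0.027 to 0.0417 for stress-low over control and from -0.0139 to 0.054 between the stress groups. Of the 21 DG pairs without Snap25, 9 had an adjusted p under 0.05, and 3 did without the 2 farthest libraries. With all libraries 6 did, but Vamp1 with Syt1 and Vamp1 with Cplx2 among them were not among the 9. With all libraries, Vamp1 and Vamp2 had r = 0.462 (adjusted permutation p 0.272). In the BLA 9 became 0 without the 2 farthest.

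The replicate numbers in the titles are not stated to mark a shared litter, batch or day. Deviations of same-numbered stress-low and stress-high libraries correlated at -0.212 to -0.021 in the DG and -0.028 to -0.003 in the BLA. With so few libraries, and deviations taken from their own group means, this cannot tell whether such libraries share a batch or day. With the replicate block, Snap25 for BLA stress-low over control was -0.001, Cplx2 was lost for DG stress-low over control, and no other count of members moved. With 3 animals per stress group the members had standard errors of 0.05 to 0.24, which limit what could be detected. The part of depth in them was not tested.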

Other observations

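In the left-out DG control of animal 35, Syt1 was at 314 TPM and Cplx2 at 583 TPM, below all 11 other DG libraries (lowest 456 and 865), while Vamp2 at 888 TPM, Cplx1 at 356 TPM and Nsf at 616 TPM lay within the range of the other controls. Snap25 at 1239 TPM and Vamp1 at 177 TPM were also below every other DG library. The members thus did not differ by a common factor in that library.

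The stress-high animal 7 had the lowest value among the 3 stress-high DG libraries for Stx1a, Vamp1, Vamp2, Syt1, Cplx1, Cplx2 and Nsf and the highest for Snap25. In the BLA it had the lowest stress-high value of all 8 genes. Summed TPM of the 10 pan-neuronal genes in its DG library was 3111, against 3372 to 3924 in the 5 controls.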
